A study of Rattus norvegicus with 9 samples.

Results

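The livers of male Wistar rats with an induced form of type 2 diabetes (T2D control) were compared with those of healthy control rats, on all transcript clusters of the array that carry exactly 1 gene symbol. A transcript cluster is the set of probes that covers 1 transcribed locus of the Clariom D Rat array. These were 23446 of the 68842 clusters measured, for 22093 symbols, and 6 of the 9 arrays of the series are compared, 3 for each group. The other 3 arrays hold livers of T2D rats that received the lupin protein Cγ with the alkaloid lupanine. They enter the fit only through the estimate of the spread.

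The T2D control rats were fed a high-fat diet for several weeks, received a low dose of streptozotocin (STZ) by injection, stayed on the diet and were kept in the study for their high fasting glucose. STZ is a toxin taken up by pancreatic beta cells through a glucose transporter, so the model joins a diet-induced insulin resistance with a partial loss of insulin. The healthy control rats had the standard diet, and both groups were gavaged with saline, the vehicle of the treated group, on 7 days. All were males of 1 strain, obtained young. RNA of 3 rats was pooled for each array. The series calls the 3 pools of a group biological replicates in one place and technical replicates in another, and here each pool counts as animals of its own. The p-values then measure the spread between pools, not between single rats. Healthy livers were lysed in Buffer RLT and T2D livers in Trizol. Diet, STZ, diabetes and lysis reagent change together here and cannot be told apart in any difference given here.

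The label of the tissue was checked on 19 measured hepatocyte markers, all of which lie above a log2 signal of 5 on average. Albumin (Alb) had log2 signals of 12.76, 12.69 and 12.77 in healthy pools 7, 8 and 9 and of 12.67, 12.67 and 12.69 in T2D pools 4, 5 and 6, the order in which pools are given throughout. Of the hepatocyte markers 3 rose (0 without T2D pool 5 or 6) and 8 fell, with a median difference of -0.22 log2, and their summed signal was 15.39 to 15.42 log2 in healthy and 15.24 to 15.35 in T2D pools. Genes that mark the exocrine and endocrine pancreas, fat cells and red blood cells were counted as well, and of these 22 genes 1 rose and 9 fell. Alpha globin (Hba-a1) was bright in every pool, at 10.62, 10.89 and 11.01 and 11.24, 11.40 and 11.37. A gene is said to have risen or fallen where its adjusted p in limma is under 0.05. Every difference is T2D control minus healthy, between group means of log2 signal, with its standard error (SE) and n = 3 pools per group. The SE is the moderated value of the limma fit to all 9 arrays. It therefore also holds the spread of the treated pools and is not that of the compared pools alone.

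Of the 23446 clusters with 1 symbol, 3491 rose (14.9%) and 5926 fell (25.3%). At over 2-fold difference, 622 rose (2.65%) and 245 fell (1.04%). These shares are those of all 1-symbol clusters. Brightness changes the picture. Among the 8945 clusters with a mean signal of at least 5 log2, 30.9% rose and 24.9% fell. Among the 14501 dimmer ones 5.0% rose and 25.5% fell. That mean is taken over all arrays of the series, the treated pools included, so more T2D than healthy arrays enter it. The limit thus favours clusters high in T2D, and how far this adds to the share of rises among bright clusters was not tested. Most gene lists hold mainly bright genes, for which the bright shares, with this limit, are the closer background. The percent that rose in the acute phase, complement, lipoprotein and TCA lists, for example, is near that of bright clusters. Control probes also differed between the groups, in both directions. The array's background probe sets averaged 3.52 log2 for healthy pools and 2.82 for T2D pools, with no overlap (3.35 to 3.72 against 2.80 to 2.85), and the intron control probe sets moved the other way, from 2.98 to 3.30. Spike-in labelling controls averaged 9.58 and 8.38. With each array centred on its background probes every difference reads 0.71 log2 higher, 98.7% of the called clusters are higher in T2D livers and any fall under 0.71 log2 changes sign. Over the bright clusters the pools correlate between 0.970 and 0.992 in the healthy group, between 0.986 and 0.994 in the T2D group and between 0.853 and 0.909 across the groups. Healthy pool 8 correlates least with the T2D pools. The numbers that follow are those of the deposited values, in which the median 1-symbol cluster differs by -0.10 log2.

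The liver makes cholesterol from acetyl-CoA through mevalonate, isoprenyl units, squalene and lanosterol. The genes of this path are switched on together by the transcription factor SREBP-2 when membrane sterol is low. They are held back through the INSIG proteins when sterol is plentiful. SREBP-1c drives the genes of fatty acid synthesis after a meal and in the presence of insulin. LXR, a receptor for oxidised sterols, switches on sterol export. Insulin also holds down glucose output, and a liver without its signal makes glucose and ketones.

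All 17 measured genes of cholesterol synthesis fell, 15 of them by over 2-fold, with a median of -2.32 log2 against -0.10 over all 1-symbol clusters. In the first stretch, from acetyl-CoA to squalene, 7 of 7 fell. Idi1, the isomerase of the isoprenyl units, had signals of 9.02, 8.87 and 8.73 in healthy pools and 4.06, 4.36 and 4.08 in T2D pools, a 26.1-fold fall (difference -4.71, SE 0.10, adjusted p = 8.62e-07 in limma). The T2D pools lie near the level of dim clusters and the healthy pools among the bright ones. Acat2, which joins acetyl-CoA units at the entrance of the path, had 7.41, 7.08 and 7.23 and 4.94, 4.88 and 4.93 (difference -2.32, SE 0.09).

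In the second stretch, from squalene to cholesterol, 10 of 10 fell with a median of -2.42 log2. Sqle, the rate-limiting squalene epoxidase, had 7.59, 7.50 and 7.48 in healthy and 3.85, 3.91 and 3.79 in T2D pools (difference -3.67, SE 0.08, adjusted p = 8.62e-07 in limma). Cyp51, which removes a methyl group from lanosterol, had 9.87, 9.64 and 9.71 and 5.69, 5.86 and 5.68, and Msmo1, a methylsterol oxidase that acts after it, had 9.51, 9.10 and 9.30 and 5.39, 5.14 and 5.09. In each of these genes the spread within a group is a small part of the distance between the groups. Tm7sf2, a sterol reductase, differed by -3.58 (SE 0.11), Hsd17b7 by -2.48 (SE 0.15), Ebp by -2.35 (SE 0.08) and Dhcr7, an enzyme of the last steps, by -2.34 (SE 0.15). The 17 genes fell in 17 of 17 cases under quantile normalization and under both median centrings, and without healthy pool 8. With centring on background probes 15 fell and the median was -1.61 log2.

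**Figure D1:**
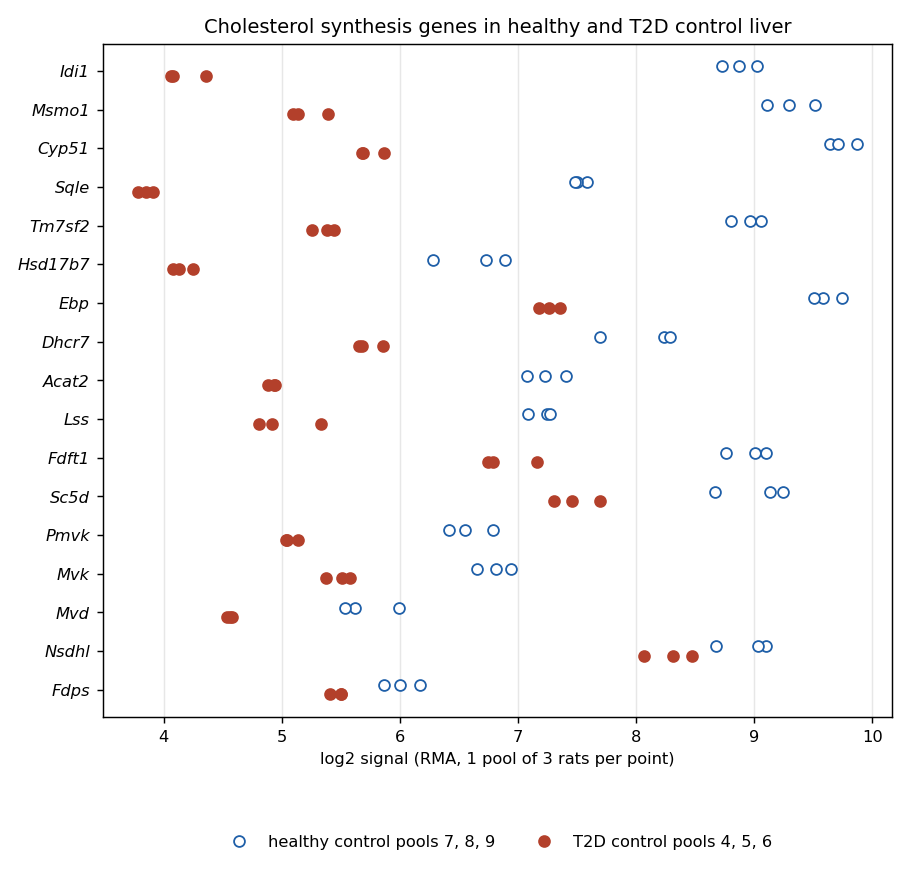
Log2 signal of the 17 measured genes of cholesterol synthesis in the 3 healthy pools (open circles) and the 3 T2D control pools (filled circles), ordered by the size of the fall. The groups do not overlap in any of the 17 genes, and Idi1 at the top lies near 9 log2 in healthy livers and near 4 in T2D livers.

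Since these genes moved together, the stretch around their transcription start is shown for 3 of them, those with the largest fall whose window holds a CCAAT box. The windows come from RefSeq (build GRCr8) and run from upstream of the start to just past it, 5′ to 3′ on the strand of the gene. Capitals mark CCAAT or its reverse complement ATTGG, the letters bound by NF-Y, a factor known to act beside SREBP in promoters of this pathway. The windows are chr17:66547475-66547774 (minus strand) for Idi1, chr16:29746863-29747162 (plus strand) for Msmo1 and chr1:212789492-212789791 (minus strand) for Tm7sf2.
Idi1: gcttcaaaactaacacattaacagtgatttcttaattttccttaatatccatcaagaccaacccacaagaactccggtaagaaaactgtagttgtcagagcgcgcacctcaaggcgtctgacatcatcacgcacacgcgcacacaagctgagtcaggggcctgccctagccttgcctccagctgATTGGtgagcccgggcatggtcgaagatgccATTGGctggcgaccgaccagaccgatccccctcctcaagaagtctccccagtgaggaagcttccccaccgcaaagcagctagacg
Msmo1: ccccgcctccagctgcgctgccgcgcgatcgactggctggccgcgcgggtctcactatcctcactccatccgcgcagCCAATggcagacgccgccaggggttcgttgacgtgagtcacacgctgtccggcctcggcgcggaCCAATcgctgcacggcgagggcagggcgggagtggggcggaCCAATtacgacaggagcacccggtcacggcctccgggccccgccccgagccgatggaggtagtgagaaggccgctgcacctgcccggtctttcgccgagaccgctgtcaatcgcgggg
Tm7sf2: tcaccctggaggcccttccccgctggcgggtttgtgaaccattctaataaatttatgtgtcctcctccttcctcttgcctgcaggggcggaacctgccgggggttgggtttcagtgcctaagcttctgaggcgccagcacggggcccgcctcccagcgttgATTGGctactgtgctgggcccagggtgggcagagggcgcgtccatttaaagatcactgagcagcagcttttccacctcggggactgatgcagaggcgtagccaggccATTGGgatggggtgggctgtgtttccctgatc

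A window was found for 14 of the 17 genes, and 11 of the 14 hold CCAAT on 1 of the strands (78.6%), against 37.49% of all 33469 windows. The sterol regulatory element, searched as TCACNCCAC on both strands, is in 0 of the 14 windows and in 1.12% of all windows. A match is a run of letters and not a measured binding site, and the element can lie outside the window or differ in a base.

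The control of the pathway moved less than its enzymes. Srebf2, the gene of SREBP-2, had 6.90, 6.42 and 6.93 and 6.02, 6.01 and 5.90 (difference -0.77, SE 0.13), and Stard4, a cytosolic sterol carrier, differed by -0.62 (SE 0.10). Mylip, a ubiquitin ligase and LXR target, rose by 0.58 log2 (SE 0.08). Insig1, a known SREBP target, had 8.82, 8.02 and 9.22 in healthy pools and 5.86, 8.79 and 8.20 in T2D pools. Only T2D pool 4 was low, the groups overlap, and the difference of -1.07 (SE 0.67) was not called (adjusted p = 0.231 in limma).

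On the side of sterol removal 6 of 11 genes rose and 1 fell. Soat1, which esterifies cholesterol in macrophages and other non-hepatocytes, had 4.53, 4.26 and 4.22 and 7.00, 7.12 and 7.04, a rise of 6.56-fold (difference 2.71, SE 0.10). Abcg1 and Abca1, the exporters that load sterol onto HDL and are classic LXR targets, rose by 2.35 (SE 0.10) and 2.11 log2 (SE 0.20). Abcg5, a transporter that pumps sterol into bile, rose by 1.11 (SE 0.18). Lcat, which esterifies sterol on HDL, was not called at -0.02 (SE 0.07), and the LXR gene itself, Nr1h3, was not called at 0.20 (SE 0.10). Soat1, Abca1 and Abcg1 are also macrophage genes. The summed signal of 30 genes of lipid-associated macrophages was 11.94 to 11.99 log2 in the healthy pools and 13.24 to 13.43 in the T2D pools, and its part in these rises was not tested.

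The genes of fatty acid synthesis went in both directions, 4 of 19 up and 7 down. Among the enzymes that make palmitate 1 of 10 rose and 4 fell. Acss2, which makes acetyl-CoA from acetate, had 8.39, 7.59 and 8.19 and 5.29, 5.53 and 5.37, a 6.31-fold fall (difference -2.66, SE 0.19). Acly, the citrate lyase that supplies cytosolic acetyl-CoA, fell by 1.56 log2 (SE 0.21), and Fasn, fatty acid synthase, by 1.23 (SE 0.33). The call of Fasn was lost without healthy pool 7 or without any 1 of the T2D pools (adjusted p between 0.0544 and 0.0723 in limma). The gene of their driver, Srebf1, rose instead, from 6.71, 6.32 and 6.86 to 7.43, 7.85 and 8.12 (difference 1.17, SE 0.19).

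Among the desaturases the contrast was larger. Scd, the main stearoyl-CoA desaturase of rat liver, had 6.37, 5.53 and 6.59 in healthy pools and 9.26, 9.67 and 9.54 in T2D pools, a 10-fold rise (difference 3.32, SE 0.24, adjusted p = 8.96e-05 in limma). Its neighbour in the family, Scd2, had 5.95, 5.26 and 5.99 and 9.53, 9.37 and 9.35 (difference 3.68, SE 0.17). Fads1, the delta-5 desaturase of polyunsaturated fats, fell from 10.10, 9.28 and 10.09 to 7.81, 7.75 and 7.58 (difference -2.11, SE 0.23). So the desaturases that make monounsaturated fat rose while Fads1 and the elongase Elovl6 fell, the latter by 1.24 log2 (SE 0.20). Scd and Scd2 are close in sequence, and shared probes could tie their signals. Thrsp, a lipogenic gene that carbohydrate induces, was not called at -0.07 (SE 0.27), with 8.55, 9.51 and 9.45 in the T2D pools.

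Of the 21 genes of triglyceride and lipid droplets 6 rose and 6 fell. Plin2, the coat protein of droplets in a fatty liver, rose by 1.21 log2 (SE 0.15), and Dgat2, which makes triglyceride, by 0.60 (SE 0.09). G0s2, an inhibitor of the lipase ATGL, had 8.65, 8.62 and 8.15 and 7.07, 6.99 and 7.08, a fall of 1.43 log2 (SE 0.14). The members thus do not move as 1 group, and their median is -0.02 log2.

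Fatty acid oxidation had 7 rises and 11 falls among 35 genes, with a median of -0.07 log2, and 6 falls without T2D pool 5, 7 without T2D pool 6 and 16 with quantile normalization. Ppara, the nuclear receptor that drives the set, rose by 1.35 log2 (SE 0.12), from 6.98, 6.72 and 7.23 to 8.47, 8.27 and 8.24. Its targets did not move as 1. Angptl4, an inhibitor of lipoprotein lipase, had 8.00, 7.16 and 7.63 and 5.58, 5.24 and 5.02, a 4.99-fold fall (difference -2.32, SE 0.21), and Pex11a, a peroxisome gene, fell by 1.22 (SE 0.20). Cyp4a1, a fatty acid omega-hydroxylase, rose by 1.08 log2 (SE 0.22), and Pdk4, which blocks pyruvate oxidation in fasting, by 1.07 (SE 0.25). Ucp2, an uncoupling protein that liver macrophages also express, rose by 1.89 (SE 0.08). The enzymes of mitochondrial oxidation themselves were mostly not called, 9 of 15.

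Among genes of lipoprotein assembly 5 of 17 rose and 9 fell, with 2 rises without T2D pool 5 and 3 without T2D pool 4 or 6. Apob, the scaffold of VLDL, had 10.99, 10.23 and 11.30 and 11.70, 11.74 and 11.78 (difference 0.90, SE 0.23), and Mttp, which loads fat onto it, rose by 0.50 (SE 0.09). Without healthy pool 8 the difference of Apob was 0.59, and its call was lost without T2D pool 5 or 6 (adjusted p = 0.0523 and 0.0529 in limma). Pltp, the phospholipid transfer protein and an LXR target, rose by 1.69 log2 (SE 0.20). Apoa2 fell by 1.23 (SE 0.14), Apoa5 by 0.88 (SE 0.17) and Apom by 0.82 (SE 0.07). Lpl, lipoprotein lipase, is low in a normal adult liver and rose from 3.94, 3.87 and 3.35 to 8.72, 8.01 and 8.15 (adjusted p = 5.18e-05 in limma), with healthy pools near the background probes (3.35 to 3.72 log2), so that no fold is given.

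The hepatic targets of insulin did not give a single picture for glucose output. G6pc1, the catalytic subunit that releases glucose from the cell, had 9.66, 8.56 and 9.30 in healthy and 7.86, 8.47 and 6.66 in T2D pools (difference -1.51, SE 0.43, adjusted p = 0.0279 in limma), and was thus lower in the diabetic livers. Its call was lost without T2D pool 4 or 6 or healthy pool 7 or 9 (adjusted p between 0.053 and 0.0871 in limma), and without T2D pool 6 the difference was -1.005. Pck1, the other classic gluconeogenic gene, was not called at 0.04 (SE 0.18, 95% interval -0.38 to 0.46). Ppargc1a, the coactivator that fasting induces, had 4.25, 4.22 and 4.90 and 5.10, 6.66 and 7.29 (difference 1.90, SE 0.48). The T2D pools range over more than 2 log2 here, with pool 4 close to the healthy pools, and the call was lost without T2D pool 5 or healthy pool 7 or 8 (adjusted p between 0.0519 and 0.0621 in limma).

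Of 21 glycolysis genes 12 rose and 2 fell. Pkm, the pyruvate kinase of non-hepatocytes, had 5.29, 5.45 and 5.41 and 7.00, 6.86 and 6.86 (difference 1.52, SE 0.13), and Slc2a1, the glucose transporter of most other cells, rose by 0.78 (SE 0.11). Gpi rose by 0.79 log2 (SE 0.07).

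In the insulin and IGF axis 5 of 19 genes rose and 4 fell. Igfbp1, the IGF-binding protein that insulin represses, had 8.54, 8.14 and 8.60 and 10.15, 11.20 and 10.34, a 4.4-fold rise (difference 2.14, SE 0.29, adjusted p = 0.00123 in limma). Irs2, an insulin receptor substrate that is also repressed by insulin, rose by 1.44 log2 (SE 0.33). On the growth hormone side Socs2 and Igfals, both induced by the hormone, fell by 1.01 (SE 0.22) and 1.00 (SE 0.08). Igf1 itself was not called, at 0.28 (SE 0.17).

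**Figure D2:**
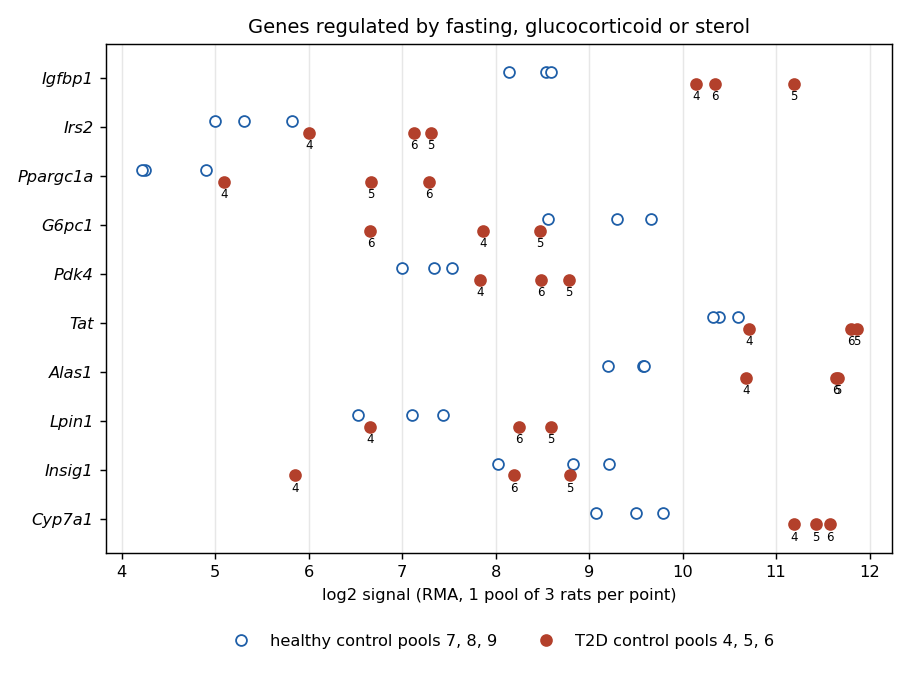
Log2 signal in each healthy pool (open circles) and T2D control pool (filled circles, labelled by pool number) for 10 genes regulated by fasting, glucocorticoid or sterol. T2D pool 4 lies below pools 5 and 6 and apart from them in Insig1, Ppargc1a, Lpin1, Irs2, Tat, Alas1 and Pdk4. Each T2D pool is above all healthy pools in Igfbp1, Cyp7a1, Ppargc1a, Irs2, Tat, Alas1 and Pdk4. In Ppargc1a, Irs2 and Tat pool 4 is only just above them.

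The T2D pools differed among themselves on several of these genes. Lpin1, a phosphatidate phosphatase induced by glucocorticoid, had 6.66, 8.60 and 8.25 in T2D pools against 7.10, 6.53 and 7.44 in healthy ones and was not called. Tat, tyrosine aminotransferase, had 10.71, 11.86 and 11.80 against 10.39, 10.32 and 10.59 and rose by 1.02 log2 (SE 0.27), a call lost without T2D pool 5 or 6 or healthy pool 7 or 8 (adjusted p between 0.0557 and 0.0735 in limma). Pool 5 was the highest T2D pool in 18 of 24 immediate early genes and in 39.9% of all 8574 bright genes. Genes with a tie for the highest value count for no pool but stay in these totals. Without a tie, pool 4 was highest in 2635, pool 5 in 3417 and pool 6 in 1236 bright genes. Jun had 7.29, 8.60 and 7.52 over the T2D pools and Gadd45b 6.51, 8.46 and 7.18. Jun rose by 1.31 log2 (SE 0.36), but by 0.91 and with no call without pool 5, and the call was also lost without healthy pool 7 or 9 (adjusted p between 0.0562 and 0.0779 in limma). Pool 5 was also the highest in 23 of 30 interferon genes, with Mx2 at 6.23, 8.05 and 5.68 and Irf7 at 6.25, 7.45 and 5.72. Neither interferon gene was called, and 5 of 30 interferon genes fell while 6 rose, against 2 falls without T2D pool 4 or healthy pool 8, 3 without T2D pool 6 or healthy pool 7 and 8 without T2D pool 5.

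The first enzyme of bile acid synthesis rose. Cyp7a1, which is rate-limiting and in rats an LXR target, had 9.50, 9.07 and 9.79 and 11.20, 11.42 and 11.57, a 3.84-fold rise (difference 1.94, SE 0.17, adjusted p = 0.000198 in limma). Later steps fell in part, with Amacr, a racemase of side-chain shortening, at -1.61 (SE 0.26), Slc27a5, the bile acid CoA ligase, at -1.27 (SE 0.15) and Hsd3b7 at -0.97 (SE 0.13). Over the 11 genes of synthesis 3 rose and 6 fell. Of the exporters, Abcc3 rose by 1.57 log2 (SE 0.15), and Abcb11, the bile salt pump, was not called at 0.16 (SE 0.23).

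Among 62 genes of drug metabolism 16 rose and 26 fell. The largest change was a rise of Abcb1b, a multidrug exporter, from 5.09, 4.75 and 4.82 to 9.83, 9.66 and 9.00, or 24.4-fold (difference 4.61, SE 0.22). Inmt, an N-methyltransferase of indoles, fell from 9.67, 9.21 and 9.72 to 6.21, 5.71 and 5.33 (difference -3.78, SE 0.39). Sult2a6 differed by -2.04 (SE 0.14), Cyp3a9 by -2.16 (SE 0.20) and Akr1c2 by -2.39 (SE 0.27), all of them called. Alas1, the first enzyme of heme synthesis, had 9.58, 9.20 and 9.59 and 10.68, 11.66 and 11.64 (difference 1.87, SE 0.25). The P450s Cyp2e1 and Cyp1a2, bright in every pool, were not called, at -0.19 (SE 0.10) and -0.19 (SE 0.11).

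In rat liver the pulses of growth hormone set genes apart by sex. Cyp2c12, the female-specific P450, had 5.51, 6.31 and 5.99 in the healthy males and 9.35, 8.34 and 8.35 in the T2D males, a 6.69-fold rise (difference 2.74, SE 0.31). Stac3, listed here as male-biased, fell from 7.76, 7.32 and 7.58 to 4.16, 4.14 and 4.15 (difference -3.40, SE 0.32). The SE of Stac3 includes the spread of the treated pools, which had 4.37, 5.72 and 4.41. The male P450 Cyp2c13 stayed bright and fell by 0.45 (SE 0.06). In all 4 of 6 male-biased genes fell and 0 rose, while 1 of 7 female-biased genes rose and 3 fell, the lowest at -2.04 log2. Only 2 of these 7 genes have a mean of at least 5 log2. Without T2D pool 6 the falls over the 13 genes were 4 in place of 7. Cyp2c genes are near copies of each other, so their signals need not be separate.

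Methyl group and choline metabolism, which supplies methyl groups, had 4 rises and 5 falls among 17 genes, with 1 rise without T2D pool 5 or 6, 2 without healthy pool 8, and 2 rises and 8 falls with quantile normalization. Gnmt, the glycine methyltransferase that consumes excess methyl donor, fell from 10.57, 10.38 and 10.12 to 8.65, 8.76 and 8.98 (difference -1.56, SE 0.15), and Pemt, which makes phosphatidylcholine by methylation, fell by 1.06 (SE 0.08). Mat2a, the methionine adenosyltransferase of non-hepatocytes and injured liver, rose by 1.17 (SE 0.18). Mat1a, the form of adult hepatocytes, was not called at 0.08 (SE 0.12).

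Of 18 clock genes 9 rose and 0 fell. Bhlhe41 and Bhlhe40, repressors in the clock loop, rose by 1.69 (SE 0.15) and 1.42 log2 (SE 0.19). Per2 had 5.19, 5.32 and 4.86 in healthy and 6.19, 6.18 and 6.15 in T2D pools (difference 1.05, SE 0.12), and Per3 rose by 1.30 (SE 0.15). The sources used here do not give the hour at which each group was sampled, and its part in these rises was not tested.

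Stress genes rose in part. Of 21 genes of the integrated stress response 9 rose and 0 fell. Asns, asparagine synthetase, had 4.45, 4.60 and 4.47 and 5.61, 5.65 and 5.53 (difference 1.09, SE 0.06), with no overlap and little spread. Gdf15 had 4.90, 4.88 and 4.81 and 5.50, 6.66 and 5.72, and Ddit3, known as CHOP, 5.62, 5.82 and 5.47 and 5.99, 6.97 and 7.28, each with 1 or more T2D pools far above the others. The call of Ddit3 was lost without T2D pool 5 or 6 (adjusted p = 0.0688 and 0.0544 in limma). Among targets of NRF2, the factor of the antioxidant response, 7 of 17 rose and 1 fell, against 6 and 5 with quantile normalization and 5 and 6 with centring over brighter clusters. Akr1b8 rose by 1.62 (SE 0.18), Hmox1 by 1.22 (SE 0.11) and Ephx1 by 1.10 (SE 0.10), while Gclm and Txnrd1 were not called at -0.33 (SE 0.14) and 0.06 (SE 0.07). Of 15 p53 targets 4 rose and 3 fell, among them Cdkn1a at 1.17 (SE 0.25) and Bbc3 at -0.85 (SE 0.16).

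Macrophages of a fatty or injured liver take on a state that handles lipid and matrix debris, known for Gpnmb, Trem2, Spp1 and Lpl. Kupffer cells are the resident macrophages, and monocytes that enter from blood carry Ccr2 and NADPH oxidase. In bulk tissue more cells of a type and more RNA per cell cannot be told apart.

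Of 30 genes of lipid-associated macrophages 26 rose and 0 fell, 17 by over 2-fold, with a median of 1.27 log2. Mmp12, macrophage elastase, had 3.36, 3.59 and 3.20 in healthy and 8.98, 8.26 and 8.01 in T2D pools, and is the largest rise among the genes named by rule. Gpnmb, a glycoprotein of foam cells, had 5.54, 5.52 and 5.91 and 10.64, 10.32 and 10.40 (difference 4.80, SE 0.14, adjusted p = 2.36e-06 in limma). Spp1, osteopontin, rose by 3.95 (SE 0.22). Pla2g7, a macrophage phospholipase, had 3.32, 3.65 and 3.27 and 7.69, 7.47 and 7.53. T2D pool 4 was the highest of the T2D pools in Mmp12, Gpnmb and Pla2g7, while the healthy pools sat near the background probes (3.35 to 3.72 log2) on Mmp12, Pla2g7, Lilrb4 and Clec7a, so that no fold is given for these. Outside the list, Clec7a, a receptor for fungal glucan, had 4.09, 3.94 and 3.72 and 8.57, 8.17 and 8.28, and Lilrb4, an inhibitory receptor, 3.37, 3.32 and 3.36 and 8.11, 7.55 and 7.61. Cd53, a tetraspanin of leukocytes and also outside it, rose by 2.98 (SE 0.12) and Vim, the filament protein of leukocytes and mesenchymal cells, likewise by 2.97 (SE 0.14). Of the list, Hexa and Cd36, which hepatocytes express too, were not called at -0.15 (SE 0.07) and 0.26 (SE 0.10).

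The resident cells gave a mixed answer. Of 19 Kupffer cell markers 11 rose and 2 fell. Clec4f, the marker held to be the most specific in rodents, had 9.17, 9.48 and 9.41 and 9.10, 9.19 and 9.05 and was not called (difference -0.24, SE 0.12, 95% interval -0.51 to 0.03), and Vsig4 was not called at -0.41 (SE 0.20). Fcna, a ficolin of Kupffer cells, fell from 7.02, 7.32 and 7.08 to 6.18, 5.93 and 5.90. Among the markers that rose were Csf1r at 1.60 (SE 0.13), Folr2 at 1.65 (SE 0.10) and Adgre1 at 0.98 (SE 0.16).

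Phagocyte genes rose in part. Of 21 markers of neutrophils and monocytes 10 rose, 0 fell and 11 were not called, with a median of 0.37 log2. Their summed signal was 9.34 to 9.43 log2 in healthy and 10.74 to 11.06 in T2D pools. It is summed on the linear scale, where the brightest genes, Cybb among them, weigh most. Cybb, the catalytic subunit of NADPH oxidase, had 6.88, 6.68 and 7.17 and 10.09, 9.66 and 9.73 (difference 2.91, SE 0.15), Itgam rose by 2.10 (SE 0.14) and Ccr2 was called with 3.33, 4.23 and 3.68 and 5.19, 4.78 and 4.66, near background in healthy pools. The granule genes that define neutrophils were dim and not called, with Elane at 4.43, 4.47 and 4.16 and 4.11, 4.17 and 4.17. Of 21 lymphocyte and plasma cell markers 5 rose and 1 fell (4 fell without healthy pool 9). Cd4 rose by 1.46 (SE 0.13), but rat macrophages also carry CD4, and Lck and Cd79a, of T and B cells, were not called at -0.09 (SE 0.05) and -0.21 (SE 0.10).

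All 8 genes of MHC class II and its loading rose, with a median of 1.59 log2, while of 9 class I and proteasome loading genes 1 rose. RT1-Da had 7.07, 7.29 and 6.77 and 9.60, 9.25 and 9.64 (difference 2.46, SE 0.17), and Cd74, the invariant chain, 6.43, 6.34 and 5.99 and 8.73, 8.53 and 8.80 (difference 2.43, SE 0.13). RT1-A1, a class I chain, was not called at 0.11 (SE 0.08). Single genes known for induction by interferon gamma rose, Cxcl9 from 6.91, 6.43 and 6.53 to 9.27, 9.68 and 9.80 (difference 2.96, SE 0.24), Gbp2 at 1.77 (SE 0.11) and Gbp5 at 1.94 (SE 0.12). Ifi27, known for type I interferon, fell by 0.90 (SE 0.18).

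**Figure D3:**
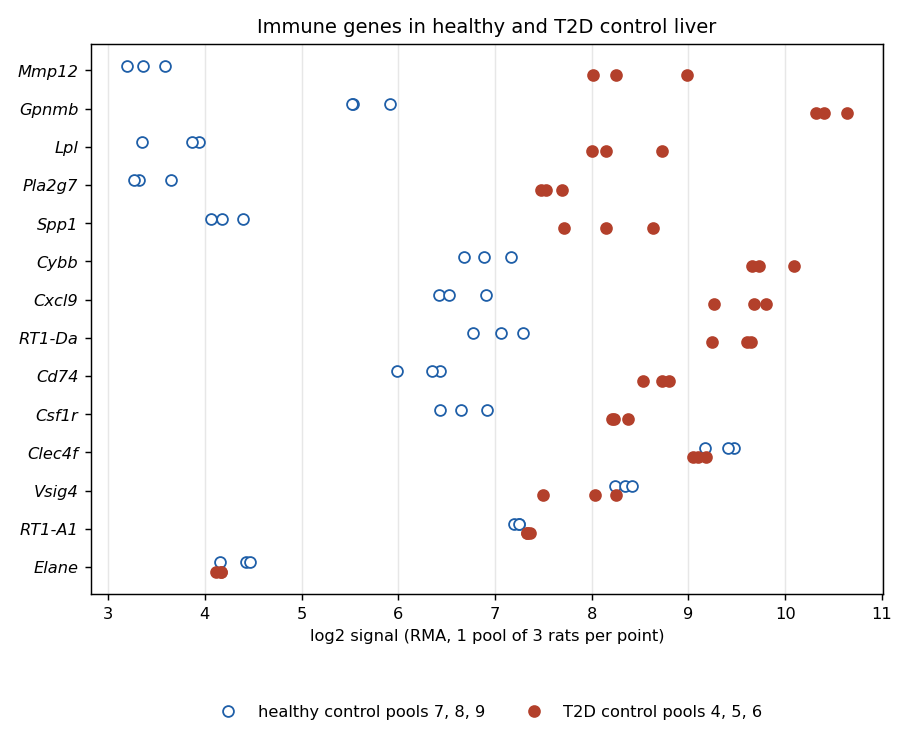
Log2 signal of 14 immune genes in the 3 healthy pools (open circles) and the 3 T2D control pools (filled circles). The lipid-associated genes from Mmp12 to Spp1 and the class II genes RT1-Da and Cd74 separate fully, while Clec4f, Vsig4, RT1-A1 and Elane overlap or nearly so.

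Of 49 chemokine and cytokine genes 22 rose and 2 fell (4 fell without healthy pool 9). Ccl3 rose from 4.21, 4.44 and 4.90 to 7.19, 6.97 and 6.80 (difference 2.47, SE 0.19), Tgfb1 by 1.53 (SE 0.12) and Il1r1 by 1.41 log2 (SE 0.18), while Cxcl12 fell by 0.74 (SE 0.10). Of 22 acute phase and plasma protein genes 7 rose and 2 fell, with a median of 0.05 log2. The share that rose is near the 30.9% of bright clusters. There were 3 rises without T2D pool 5, 4 without healthy pool 7, and 6 rises and 6 falls with centring over brighter clusters. Lcn2, lipocalin 2, had 5.04, 4.92 and 4.71 and 8.12, 8.07 and 8.03 (difference 3.18, SE 0.20), and Lbp, which binds endotoxin, 9.24, 10.01 and 9.29 and 11.39, 11.40 and 11.42 (difference 1.89, SE 0.20). Apcs, serum amyloid P, fell by 1.49 (SE 0.08). Of 21 complement genes 7 rose and 3 fell. C7 rose by 2.74 (SE 0.45) and the receptors C5ar1 and C3ar1 by 1.73 (SE 0.15) and 1.35 (SE 0.20), while Mbl1 fell by 0.82 (SE 0.09). Of iron genes Ftl1, the light chain of ferritin, rose by 1.19 (SE 0.06), and Fth1, the heavy chain, was not called at -0.02 (SE 0.05).

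Stellate cells store vitamin A and, once activated, become contractile and lay down collagen. Of 31 stellate cell and myofibroblast markers 16 rose and 2 fell, with a median of 0.32 log2 and a summed signal of 11.35 to 11.74 log2 in healthy and 12.23 to 12.33 in T2D pools. Rgs5, a pericyte gene, rose from 5.98, 6.38 and 6.36 to 8.29, 8.43 and 8.53 (difference 2.18, SE 0.11) and Acta2, smooth muscle actin, from 5.38, 5.09 and 5.13 to 6.59, 7.27 and 6.62 (difference 1.63, SE 0.19). Lrat, which makes retinyl ester in quiescent cells, was not called at -0.08 (SE 0.18). Of 19 collagen chains 6 rose and 3 fell (10 and 3 with median centring), with a median of 0.07 log2. This share of rises is near the 30.9% of bright clusters. Col3a1 rose by 1.04 (SE 0.22), Col1a2 by 0.86 (SE 0.16) and Col1a1 by 0.43 (SE 0.14). The call of Col1a1 was lost without any 1 of the 6 pools (adjusted p between 0.071 and 0.143 in limma). Timp3, an inhibitor of matrix proteases, rose by 1.46 (SE 0.19).

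Of 21 markers of the sinusoidal endothelium 14 rose and 2 fell (9 and 1 with quantile normalization), with a summed signal of 11.12 to 11.32 log2 in healthy and 11.69 to 11.79 in T2D pools, among them Cdh5 at 1.35 (SE 0.21) and Stab2 at 1.02 (SE 0.14). Flt1 lies on 2 clusters, of which 1 rose and 1 fell. Cholangiocyte markers were mostly dim, and 3 of 13 fell (1 without T2D pool 6 and 6 without healthy pool 9) and 1 rose, Pkhd1 at 1.23 (SE 0.14), while Sox9 and Epcam were not called at -0.18 (SE 0.06) and -0.33 (SE 0.12). Of 32 cell cycle genes 3 rose and 1 fell. Mki67 had 3.72, 3.82 and 3.75 and 5.50, 5.16 and 5.06, near background in healthy pools and still close to 5 in T2D pools, and the replication genes Pcna and Mcm7 were not called at -0.12 (SE 0.11) and -0.12 (SE 0.11).

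Lysosomal genes rose in 29 of 54 and fell in 5, with a median of 0.30 log2, against 19 and 8 and a median of 0.13 with quantile normalization, and 2 falls without any 1 of the T2D pools. Lgmn, the protease legumain, had 7.43, 7.43 and 7.52 and 9.50, 9.24 and 9.21 (difference 1.86, SE 0.09), Tpp1 rose by 1.35 (SE 0.07) and Atp6v1b2, a subunit of the proton pump, by 1.18 (SE 0.08). Ctsh and Lamp2, bright in every pool, were not called at -0.01 (SE 0.12) and 0.10 (SE 0.07). The CLEAR element, searched as TCACGTGA on both strands, is in 6 of the 44 lysosomal windows found (13.6%) and in 0.78% of all windows. Phosphate transporters had 4 rises and 2 falls among 8 genes, led by Slc20a1, a sodium-phosphate carrier, from 4.82, 4.61 and 4.79 to 7.96, 8.49 and 8.01 (difference 3.42, SE 0.15).

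In several housekeeping complexes most of the called subunits fell. Of 37 respiratory chain subunits 3 rose and 23 fell (median -0.40 log2), of 31 proteasome subunits 3 rose and 20 fell (median -0.41 log2), of 174 cytosolic ribosomal protein genes 12 rose and 95 fell (median -0.33 log2), and of 74 mitochondrial ribosomal protein genes 2 rose and 49 fell (median -0.41 log2). With centring on background probes these 4 medians turn positive, between 0.30 and 0.38 log2, and they stay below -0.20 under the other scalings. Ndufa1, of complex I, had 7.26, 7.72 and 7.34 and 5.93, 6.29 and 6.02 (difference -1.36, SE 0.13), Cox7b fell by 1.15 (SE 0.14) and Psmb6, a catalytic subunit of the proteasome, fell by 1.32 (SE 0.15). The complexes did not fall as wholes, since Atp5f1a and Atp5f1b, which form the head of ATP synthase, were not called at -0.01 (SE 0.05) and 0.06 (SE 0.06), and Psmd2 rose by 0.82 (SE 0.10). Of the TCA cycle and pyruvate dehydrogenase genes 9 of 29 rose and 4 fell, against 5 and 8 with quantile normalization.

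The differences also varied with the length of the gene. Over the 8077 bright protein-coding genes, all of which have a length in RefSeq (GRCr8), the median difference was -0.27 log2 for the 661 genes under 3 kb, -0.09 for the 1162 of 6 to 12 kb, 0.11 for the 1673 of 25 to 50 kb and 0.41 for the 968 over 100 kb. The limit that picks bright genes favours those high in T2D here as well. The share that rose climbed from 13.5% under 3 kb to 56.8% over 100 kb, and the share that fell dropped from 47.5% to 6.9%. This is a description across genes, which are not replicates, and it moves with the intron control probes and with the lysis reagent, whose part was not tested. The median length was 1.6 kb in the cytosolic ribosomal list, 7.2 kb in the respiratory chain, 6.2 kb in the mitochondrial ribosomal list, 11.02 kb in the proteasome, 38.1 kb in the endothelial list and 28.1 kb in the clock list. It was 16.0 kb in cholesterol synthesis, 16.2 kb in the lipid-associated macrophage list and 6.6 kb in MHC class II. The collagen list had a median length of 108.47 kb and a median difference of 0.07 log2.

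**Figure D4:**
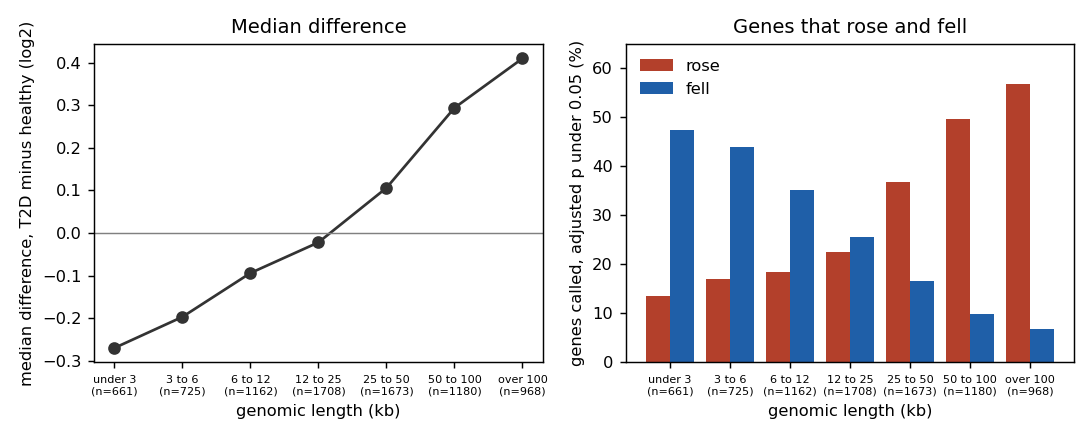
Median difference (T2D control minus healthy, log2) of bright protein-coding genes by genomic length, with the percent of genes that rose and fell in each class. The median climbs from -0.27 log2 under 3 kb to 0.41 log2 over 100 kb, on the deposited scale, and lies higher by 0.71 log2 in every class with centring on background probes.

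**Figure D5:**
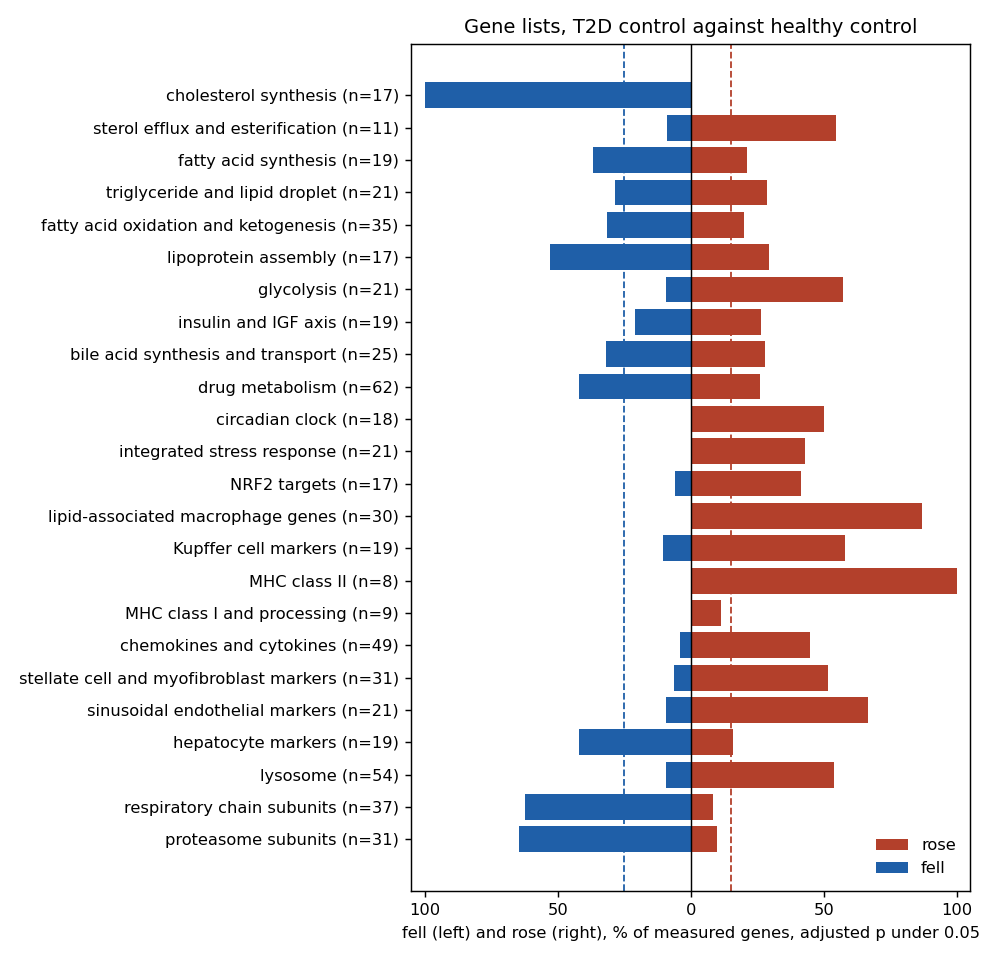
Percent of measured genes that rose (right) and fell (left) in 24 gene lists, with dashed lines at the shares over all 1-symbol clusters, 14.9% and 25.3%, on the deposited scale. Among bright 1-symbol clusters, a choice that favours clusters high in T2D, these shares are 30.9% and 24.9%, which are not drawn. Cholesterol synthesis lies wholly on the left and MHC class II wholly on the right, while lipid oxidation and drug metabolism have both. With centring on background probes 15 of the 17 cholesterol synthesis genes fell.

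Of 382 microRNA genes 31 rose and 89 fell, 8 and 4 of them by over 2-fold. Over all 1-symbol clusters 14.9% rose and 25.3% fell, and 2.65% and 1.04% did so by over 2-fold. A mean under 5 log2 was found for 342 of the microRNA genes. The array reads the precursor with the mature strand, so no arm can be named. Mir223, a microRNA of myeloid cells, had 2.00, 2.82 and 2.02 and 3.67, 3.78 and 3.53, the healthy values below the mean of the background probes, and Mir147, known in mice for activated macrophages, 4.91, 4.28 and 4.48 and 6.48, 6.39 and 6.48 (difference 1.89, SE 0.24). Both were called. A mature sequence that RefSeq gives for each follows, with the seed, bases 2 to 8, in capitals. RefSeq also gives rno-miR-223-5p, and the array does not tell which of the arms was present.
rno-miR-223-3p: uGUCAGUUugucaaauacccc
rno-miR-147: gUGUGCGGaaaugcuucugcua
The seeds differ.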

How the data were processed

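Liver RNA pools were hybridised by the study to the Clariom D Rat array. The authors deposited log2 signals per transcript cluster, summarised by RMA (background correction, quantile normalization and median polish) in Transcriptome Analysis Console 4.0.2, and these values were used as deposited. Arrays have no read depth, and their number limits the precision.

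Clusters were named through the platform annotation, updated through RefSeq. All 68842 clusters and all 9 arrays were fitted in limma 3.58.1 (R 4.3.3, lmFit and eBayes), with Benjamini-Hochberg adjustment over all clusters and a threshold of 0.05. A gene on several clusters is given by the one with the highest mean. Simulated data with 200 changed clusters were tested in the same way, and 88.1% of changes of 1 log2 were recovered, 97% at 1.5 log2 and 100% at 3 log2, with 10 false calls. The simulation had independent noise, few changed clusters and no offset between the groups, unlike the data. These rates therefore check the code and are not error rates of the comparison.

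Genes were named by a rule, the 15 largest rises and 15 largest falls with separate pools, and in each list up to 6 called members and up to 3 others. Fasn, Mir223 and Mir147 lie outside it and were chosen after their values were seen, as were the CCAAT promoters, since the sterol regulatory element was found in 0 windows. The members and lists were chosen with earlier results of these data known. Many clusters hold the same value on several arrays, and 61668 clusters remained without those that share 1 value in all pools of a group, fitted as an alternative. Other scalings, filters and fits and the omission of each pool were tried. Motifs and figures were made in Python 3.11.15.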

Additional observations from a re-analysis of the deposited data

Results flagged for a closer look

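Clusters with no gene symbol lie outside the comparisons above. Of all 44891 of them 11.1% rose and 21.1% fell, with a median difference of -0.13 log2. Only the bright ones were higher in T2D livers as a class, and the limit that picks them favours clusters high in T2D. Of the 6890 such clusters with a mean of at least 5 log2, 16.2% rose by over 2-fold in T2D livers, against 6.16% of the bright clusters with 1 symbol, and their median difference was 0.33 log2.

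The intron control probe sets of the array, which no comparison uses, were higher in T2D than in healthy livers by 0.32 log2 (2.98 in healthy and 3.30 in T2D pools, over 1153 probe sets).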

How the results depend on the processing

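The 9417 calls among 1-symbol clusters became 21409 with each array centred on its background probes and 5250 among clusters with a mean of at least 5 log2, and lay between 6398 and 11669 when 1 pool was left out. The 867 calls over 2-fold became 3468 with background centring and lay between 737 and 1069 with 1 pool left out. With only the 6 compared arrays fitted, these 2 counts were 6654 and 840. By the methods' threshold (unadjusted p under 0.05 and over 2-fold) the count was 868, then 3468 with background centring, and between 747 and 1077 with 1 pool left out. Of the called clusters 37.1% were higher in T2D livers, against 58.5% with median centring, 19.6% with centring over brighter clusters and 98.7% with background centring. Over 2-fold these shares were 71.7%, 83.3%, 54.1% and 98.8%, and 56% with quantile normalization. With background centring Stard4 (0.082) and Cyp2c13 (0.252) changed sign, and the calls of Srebf2, Fasn, Apoa5, Apom, G6pc1, Socs2, Bbc3, Ifi27, Cxcl12 and Mbl1 were lost. Quantile normalization ended the calls of Hba-a1 (0.26), Cyp4a1 (0.60), Tat (0.81) and Col1a1 (0.34), and lowered Dgat2 to 0.37, Mttp to 0.21 and Gpi to 0.49. Of the 135 called genes named in the Results, 7 lost the call with only the 6 compared arrays fitted. The loss was 1 each with weights per array, with centring over brighter clusters and without treated pool 3. Of 24 list medians of at least 0.2 log2 in size, 8 changed sign with background centring, and 1, that of the unfolded protein response, with quantile normalization. The cause of these shifts was not tested. No paired analysis was possible because the pool numbers are not shared between the groups.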

Other observations

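Of 25 genes of amino acid catabolism and the urea cycle 2 rose and 9 fell, with a median of -0.05 log2. Without T2D pool 4 this list had 7 rises, without T2D pool 5 or 6 or healthy pool 8 it had 0, and quantile normalization gave 0 rises, 10 falls and a median of -0.40 log2. Oat, ornithine aminotransferase, fell by 1.59 log2 (SE 0.22), and Hal, which breaks down histidine, fell by 0.88 (SE 0.22). Of 17 antioxidant enzymes 4 rose and 8 fell, with 5 falls without any 1 of the T2D pools and 2 rises without T2D pool 4 or 5 or healthy pool 7 or 9. Prdx4, the peroxiredoxin of the endoplasmic reticulum, had log2 signals of 8.71, 8.80 and 8.53 in healthy pools 7, 8 and 9 and 7.32, 7.25 and 7.13 in T2D pools 4, 5 and 6 (difference -1.44, SE 0.09), and Gpx4, which reduces lipid peroxides, fell by 1.07 (SE 0.13).

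Of 19 genes of the unfolded protein response 5 rose and 1 fell, with a median of 0.26 log2, but quantile normalization gave 2 rises, 4 falls and a median of -0.06 log2. Eif2ak3 and Atf6, sensors of the response, rose by 1.29 (SE 0.11) and 1.11 log2 (SE 0.13). The groups do not overlap in any of Oat, Hal, Prdx4, Gpx4, Eif2ak3 and Atf6. Smlr1, in none of the lists, was among the 15 largest falls, at -2.21 log2 (SE 0.13).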
